A study of Mus musculus with 20 samples.

Results

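The Fc receptor family of the mouse was followed in RNA of dural CNS-associated macrophages (dCAMs), with 7 members chosen by gene symbol: Fcer1g, Fcgr1, Fcgr3, Fcgr4, Fcgr2b, Fcgrt and Fcrls. A row with the symbol was found for 6 members among the 33243 rows of the table. No row was named Fcrls, and the row Fcrl2 was taken for it, since newer mouse nomenclature uses that name; it is given as Fcrl2 and is left out of the counts of members below. The 6 members and Fcrl2 were among the 16632 genes that held at least 10 counts over the 20 libraries and were tested.

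The dCAMs came from 10 mice of the genotype Ccr2creERT2/+ R26tdT/tdT, in which tamoxifen switches on the red protein tdTomato (tdT) in cells expressing the chemokine receptor Ccr2 and in their progeny. All mice, controls included, had been through 7 days of BLZ945 (200 mg/kg), a CSF1R inhibitor that empties the dura of macrophages, and had received 2 mg tamoxifen on its final day and 2 and 4 days after that. After 8 weeks, 5 mice were injected with LPS (2.5 mg/kg) and 5 with PBS (CTL), and the dura was taken 12 h later. CD45int CD11b+ CD206int-high cells of each mouse were divided by tdT into a positive and a negative library, so that there were 4 groups of 5 libraries. The CTL mice are numbered 174, 175, 177, 178 and 179, the LPS mice 54, 56, 59, 60 and 61, and values below follow that order. The numbers of the treatments fall in separate series. Any other difference between these sets of mice cannot be told apart from LPS. CTL libraries held 6017650 to 12208203 counts over 9673 to 12693 detected genes and LPS libraries 12073566 to 18925908 counts over 13031 to 14841 genes, and every member kept its call when all libraries were thinned to the smallest total. Among CTL libraries the tdT- ones held 9673 to 12393 detected genes and the tdT+ ones 11565 to 12693. The fewest were in the tdT- libraries of mice 179 (9673) and 174 (9846). Ages are not used here, and mice without depletion or without the Ccr2creERT2 allele were not analysed here.

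Fc receptors bind the constant part of antibodies. The activating receptors for IgG on mouse macrophages, encoded by Fcgr1, Fcgr3 and Fcgr4, need the common gamma chain encoded by Fcer1g, which carries the ITAM motif that recruits the kinase Syk. The inhibitory receptor encoded by Fcgr2b carries an ITIM motif, which recruits phosphatases and counters that signal. Fcgrt encodes the heavy chain of the neonatal Fc receptor FcRn, which pairs with beta-2 microglobulin (B2m) and protects IgG from breakdown inside cells. Fcrls encodes an Fc receptor-like scavenger molecule known as a marker of microglia and of some resident macrophages, and is not known to bind IgG.

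In the GRCm38 assembly with the GENCODE M21 annotation, used only to locate genes, 4 of the members lie close together on chromosome 1. Fcgr2b (chr1:170958617-170976547, minus strand), Fcgr4 (chr1:171018920-171029761, plus strand) and Fcgr3 (chr1:171051174-171064935, minus strand) span 106 kb. Fcer1g (chr1:171229572-171234365, minus strand) lies 165 kb beyond Fcgr3. Fcgr1 is at chr3:96282909-96293969, Fcrls at chr3:87250758-87263738 and Fcgrt at chr7:45092990-45103851, all on the minus strand, and all 7 are protein coding. Fcgr2b and Fcgr3 are near-copies of each other in part. Of the 50-base windows of their transcripts, 166 were identical between them, 9.58% of those of Fcgr3, and 6.95% of the windows of Fcgr2b were shared with another gene. The exons of Fcgr2b also overlap the antisense gene Gm38204, so that counts of Fcgr2b and Fcgr3 are partly uncertain, while the other members shared 0 windows.

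LPS moved most of the family. In tdT- dCAMs Fcgr4, Fcgr1 and Fcgr2b rose and Fcgrt fell, and in tdT+ dCAMs Fcer1g rose past the threshold as well. Fcrl2 fell in both populations. A gene was called with a Benjamini-Hochberg adjusted p under 0.05 in edgeR's quasi-likelihood test, fitted jointly over the 20 libraries, and an absolute log2 fold change over 1. In tdT- dCAMs 3 of 6 members were called higher and 1 lower, against 7.20% of all genes tested called higher and 4.27% called lower. For the 5823 genes whose log2 CPM averaged 4 or more, a range that holds all members, the shares were 5.75% and 8.55%. CPM values relate each count to the TMM-scaled total of its library, and they compare libraries but not genes of unequal length. In tdT+ dCAMs 4 of 6 members were called higher and 1 lower, against 3.37% and 2.52% of all genes and 5.19% and 5.60% of those of high level. The median log2 fold change of the 6 members was 1.14 in tdT- and 1.30 in tdT+ dCAMs, beside 0.02 and 0.01 over all genes tested. With the adjusted p alone, at any fold, Fcer1g joined the called members in tdT- dCAMs, where 12.5% of all genes passed. The share was 6.61% in tdT+ dCAMs, where no member was added. The LPS and CTL libraries of a population did not overlap for 5 of 6 members in either population, against 12.6% of all genes in tdT- and 17.8% in tdT+ dCAMs, and the exception was Fcgr3 in both.

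**Figure D1:**
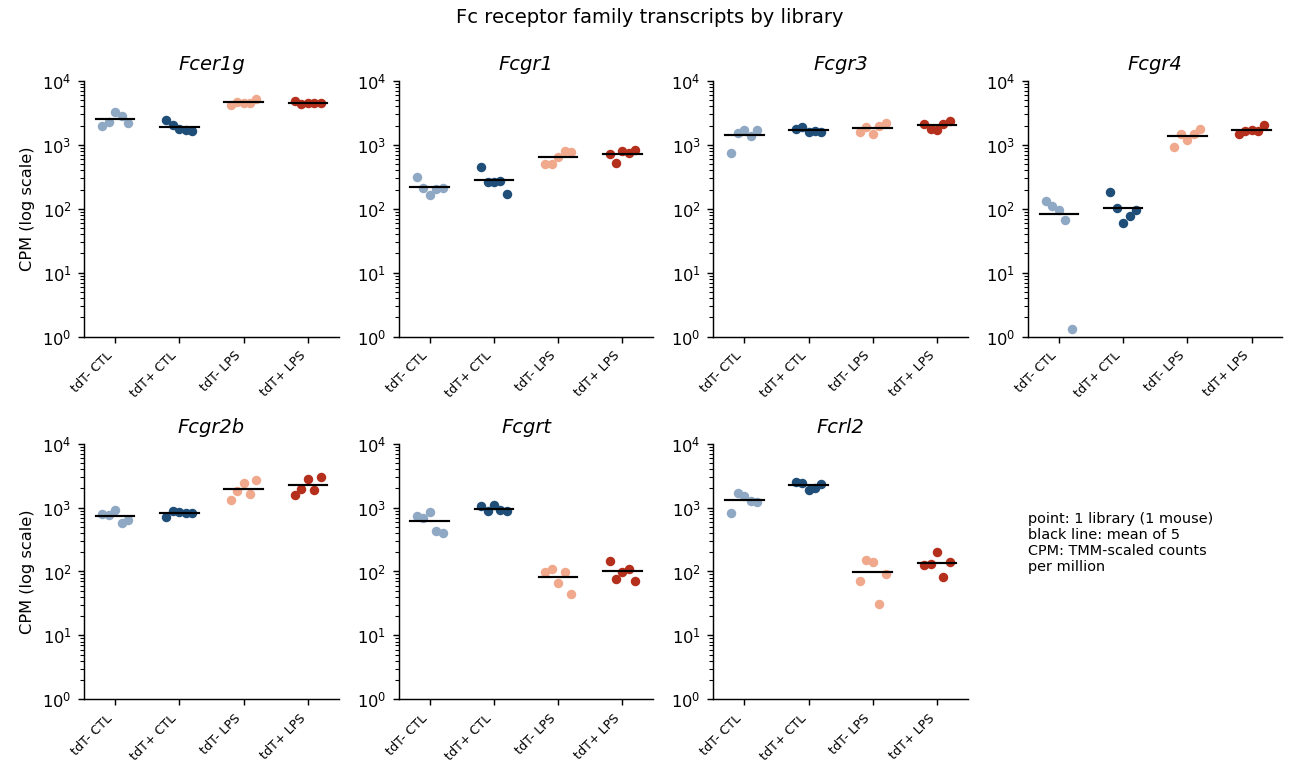
Level of each gene in CPM on a log axis in the 20 libraries, by group; points are libraries, in the order of mouse numbers, and black lines are means of 5. Fcgr4 moved from at most 181 CPM in CTL to at least 928 CPM in LPS libraries, and Fcgrt and Fcrl2 moved the opposite way.

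The libraries of a mouse share the dura they were sorted from. With the mouse as a random block in limma-trend the calls covered 4 and 5 members, by name those of the edgeR fit. In limma-voom with the same block 2 members were called in tdT- (Fcgr1, Fcgrt) and 3 in tdT+ dCAMs (Fcgr1, Fcgr4, Fcgrt). There the fitted variance trend went down to -0.228, where a standard deviation cannot lie, and the weight of a member's count reached 3.00e+10 beside a median over all genes of 0.424.

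Fcer1g, the common gamma chain, was the most abundant member per kilobase of exon in all 4 groups. Its level in tdT- CTL libraries was 2002, 2299, 3222, 2794 and 2231 CPM and in tdT- LPS libraries 4213, 4675, 4611, 4554 and 5150 CPM. In tdT+ dCAMs it was 2474, 2038, 1789, 1740 and 1667 CPM in CTL and 4837, 4340, 4501, 4569 and 4610 CPM in LPS mice. Every LPS library lay above every CTL library, and the LPS libraries were close to each other, with a coefficient of variation of 7.25% in tdT- and 3.95% in tdT+ dCAMs against 19.6% and 16.9% in CTL. The log2 fold change was 0.89 (SE 0.12, adjusted p = 4.16e-05 in edgeR) in tdT- dCAMs, short of the fold threshold, and 1.24 (SE 0.12, adjusted p = 6.28e-07) in tdT+ dCAMs. With the mouse as a block in limma-voom the second value was 1.36 (adjusted p = 0.747). Per kilobase of exon, Fcer1g ranked 13 and 17 of 15834 genes in tdT- and tdT+ CTL libraries and 5 in both LPS groups.

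Fcgr1 encodes the high-affinity receptor for IgG. It measured 310, 213, 166, 207 and 211 CPM in tdT- CTL libraries and 505, 511, 644, 797 and 773 CPM in tdT- LPS libraries. The tdT+ libraries held 450, 262, 258, 274 and 171 CPM in CTL and 713, 520, 802, 757 and 838 CPM in LPS mice. Groups did not overlap in either population, and the highest CTL library of both populations was that of mouse 174. Fcgr1 rose by a log2 fold change of 1.55 (SE 0.24, adjusted p = 1.28e-04, edgeR) in tdT- and 1.36 (SE 0.24, adjusted p = 5.56e-04) in tdT+ dCAMs. In the tdT- comparison the call was lost in limma-voom with quality weights (1.56, adjusted p = 0.0598).

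Fcgr4 encodes an activating receptor of intermediate affinity found on mouse monocytes, macrophages and neutrophils. It changed most among the members that rose. The tdT- CTL libraries held 132, 111, 97.1, 67.1 and 1.31 CPM, the last of them in mouse 179 from 10 counts, and the tdT- LPS libraries held 928, 1486, 1197, 1484 and 1780 CPM. In tdT+ dCAMs the CTL libraries held 181, 102, 58.9, 76.0 and 96.5 CPM and the LPS libraries 1481, 1633, 1700, 1636 and 2032 CPM. The lowest LPS library, that of mouse 54 in both populations, lay far above the highest CTL library. Fcgr4 rose by a log2 fold change of 4.07 (SE 0.63, adjusted p = 1.35e-04, edgeR) in tdT- and 4.05 (SE 0.63, adjusted p = 1.59e-04) in tdT+ dCAMs, which is 16.8-fold and 16.5-fold. Without mouse 179 the tdT- value was 3.73, still called, and with the mouse as a block in limma-voom it was 4.89 (adjusted p = 0.0639). Fcgr4 ranked 746 and 487 of 15834 genes per kilobase in tdT- and tdT+ CTL libraries and 37 and 33 in LPS libraries.

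Fcgr3 encodes the low-affinity activating receptor. Its level was 745, 1564, 1741, 1373 and 1736 CPM in tdT- CTL and 1604, 1936, 1492, 1996 and 2232 CPM in tdT- LPS libraries. The tdT+ libraries held 1775, 1877, 1576, 1658 and 1575 CPM in CTL and 2155, 1796, 1695, 2108 and 2326 CPM in LPS mice. Groups overlapped in both populations, and the tdT- CTL library of mouse 174 lay below all others. The log2 fold change was 0.37 (95% CI 0.00 to 0.74, adjusted p = 0.162, edgeR) in tdT- and 0.25 (95% CI -0.12 to 0.62, adjusted p = 0.506) in tdT+ dCAMs. Both intervals exclude a change of 1 on the log2 scale. The Fcgr3 values carry the uncertainty of windows shared with Fcgr2b.

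The stretches before the start sites of these 3 receptors are shown because Fcgr4 and Fcgr1 rose and Fcgr3 did not pass the test. They are RefSeq sequences of the build GRCm38.p6, 250 bases up to the start site, written 5′ to 3′ on the strand of the gene. All 7 members had an entry, and Fcgr3 had an entry for each of 2 start sites. Capitals mark a match to the GAS motif (TTCNNNGAA, a palindrome), the core of the ISRE (GAAANNGAAA, named for interferon-stimulated genes), the core of the PU.1 site (GAGGAA) or the consensus of NF-kB, searched on both strands.
Fcgr1, chr3:96293970-96294219, minus strand: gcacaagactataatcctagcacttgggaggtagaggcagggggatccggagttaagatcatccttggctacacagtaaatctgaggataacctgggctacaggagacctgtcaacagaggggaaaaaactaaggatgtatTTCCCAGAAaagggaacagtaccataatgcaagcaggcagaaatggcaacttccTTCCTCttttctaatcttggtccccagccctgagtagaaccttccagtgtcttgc
Fcgr4, chr1:171018676-171018925, plus strand: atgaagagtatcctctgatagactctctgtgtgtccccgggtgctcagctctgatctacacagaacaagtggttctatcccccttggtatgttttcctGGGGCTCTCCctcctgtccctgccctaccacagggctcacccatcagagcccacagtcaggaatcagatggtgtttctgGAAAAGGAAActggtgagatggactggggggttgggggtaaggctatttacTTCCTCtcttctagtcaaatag
Fcgr3, chr1:171059404-171059653, minus strand: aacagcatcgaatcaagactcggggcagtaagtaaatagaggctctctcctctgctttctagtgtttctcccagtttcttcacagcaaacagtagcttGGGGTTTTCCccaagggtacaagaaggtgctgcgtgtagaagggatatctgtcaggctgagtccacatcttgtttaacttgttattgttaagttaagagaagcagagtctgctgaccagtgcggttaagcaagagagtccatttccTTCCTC
Fcgr1 held the GAS match 109 bases before its start site, and 7.02% of 32851 promoters of the same length hold that motif. Fcgr4 held the ISRE core at 73 bases (2.98% of promoters) and the NF-kB consensus at 152 bases (3.90%). Fcgr3 held the NF-kB consensus too, at 152 bases before the start site shown. Both RefSeq stretches of Fcgr3 lie inside the GENCODE span of the gene, whose 5′ end is at chr1:171064935. The stretch of Fcgr2b lies inside its span as well. The PU.1 core (23.3% of promoters) was found for Fcgr1, Fcgr3, Fcgr4 and Fcrls, and the 250 bases of Fcer1g, Fcgr2b and Fcgrt held none of the 4 motifs. The matches overlapped in no member, apart from the GAS match, which reads as the motif on both strands.

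Fcgr2b, the inhibitory receptor, rose in both populations. Its level was 807, 777, 925, 577 and 636 CPM in tdT- CTL and 1302, 1790, 2435, 1616 and 2663 CPM in tdT- LPS libraries. In tdT+ dCAMs it was 714, 880, 849, 835 and 812 CPM in CTL and 1586, 1974, 2793, 1878 and 2978 CPM in LPS mice. Groups did not overlap, and among LPS mice numbers 61 and 59 held the highest levels and number 54 the lowest in either population. The log2 fold change was 1.40 (SE 0.20, adjusted p = 6.04e-05, edgeR) in tdT- and 1.45 (SE 0.20, adjusted p = 4.19e-05) in tdT+ dCAMs. In limma-voom the call was lost with the mouse as a block (1.43, adjusted p = 0.269, in tdT- and 1.61, adjusted p = 0.202, in tdT+ dCAMs). It was also lost with quality weights in tdT- dCAMs (1.32, adjusted p = 0.276).

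**Figure D2:**
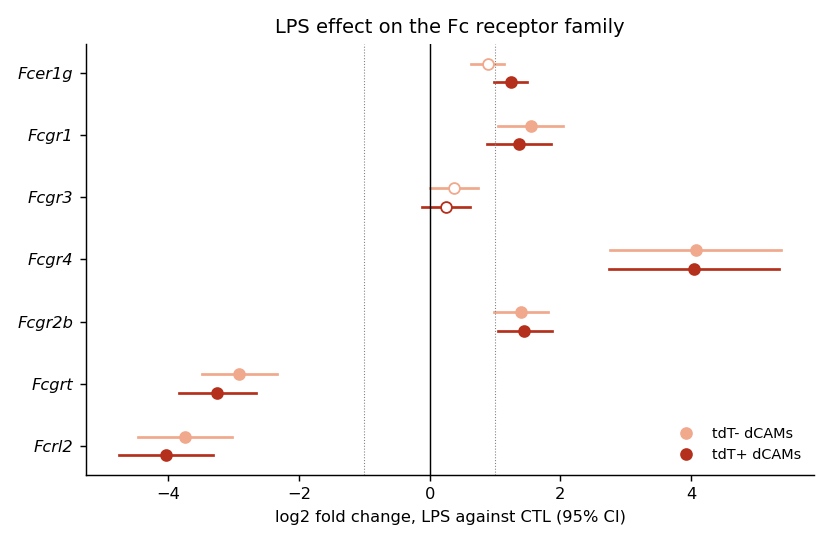
Log2 fold change of LPS against CTL with its 95% CI for each gene in tdT- and tdT+ dCAMs; filled points were called, open points were not, and dotted lines mark the fold threshold. Intervals of both populations lie side by side for every gene, from -4.03 for Fcrl2 to 4.07 for Fcgr4.

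The make-up of the activating receptors differed between treatments. Of the summed level per kilobase of Fcgr1, Fcgr3 and Fcgr4, Fcgr3 took 83.1% ± 10.2 in tdT- and 83.9% ± 4.29 in tdT+ CTL libraries (SD, n = 5), and 44.5% ± 3.12 and 41.6% ± 3.35 in LPS libraries. The share of Fcgr4 was 7.38% ± 5.75 and 6.86% ± 2.42 in CTL and 45.1% ± 3.15 and 48.4% ± 3.29 in LPS libraries. The share of Fcgr1 lay between 9.23% and 10.4% on average in the 4 groups. Shares of Fcgr3 and Fcgr4 did not overlap between CTL and LPS libraries in either population. Which receptor took most under LPS depends on the length used. With mean transcript lengths in place of merged exons the share of Fcgr4 was 4.96% and 4.56% in CTL and 34.6% and 37.7% in LPS libraries, that of Fcgr3 was 84.7% and 85.5% in CTL and, still the largest, 52.4% and 49.7% in LPS libraries, and that of Fcgr1 was 10.4% and 9.94% in CTL and 13.0% and 12.7% in LPS libraries. These shares and the ratios that follow are descriptions of the same levels, with no test of their own.

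Against Fcgr2b, the members of the activating set did not move alike. The ratio of Fcgr4 to Fcgr2b CPM was 0.106 ± 0.0623 in tdT- and 0.130 ± 0.0717 in tdT+ CTL libraries, and 0.724 ± 0.163 and 0.785 ± 0.135 in LPS libraries (SD, n = 5). The ratio of Fcgr3 to Fcgr2b ranged from 0.923 to 2.73 and from 1.86 to 2.48 in CTL and from 0.613 to 1.24 and from 0.607 to 1.36 in LPS libraries, apart in tdT+ and overlapping in tdT- dCAMs. The ratio of Fcgr1 to Fcgr2b was similar in the 4 groups, with means from 0.305 to 0.354. The summed CPM of the 3 activating receptors was 1735 ± 335 and 2078 ± 239 in CTL and 3873 ± 705 and 4438 ± 470 in LPS libraries. Set against Fcgr2b that sum was 2.4 ± 0.626 and 2.56 ± 0.467 in CTL and 2.07 ± 0.496 and 2.08 ± 0.498 in LPS libraries, ranges that overlapped in both populations. Fcer1g, per kilobase, was 3 ± 0.553 times the sum of the 3 receptors in tdT- and 1.9 ± 0.134 times in tdT+ CTL libraries, and 2.25 ± 0.31 and 1.89 ± 0.17 times in LPS libraries.

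**Figure D3:**
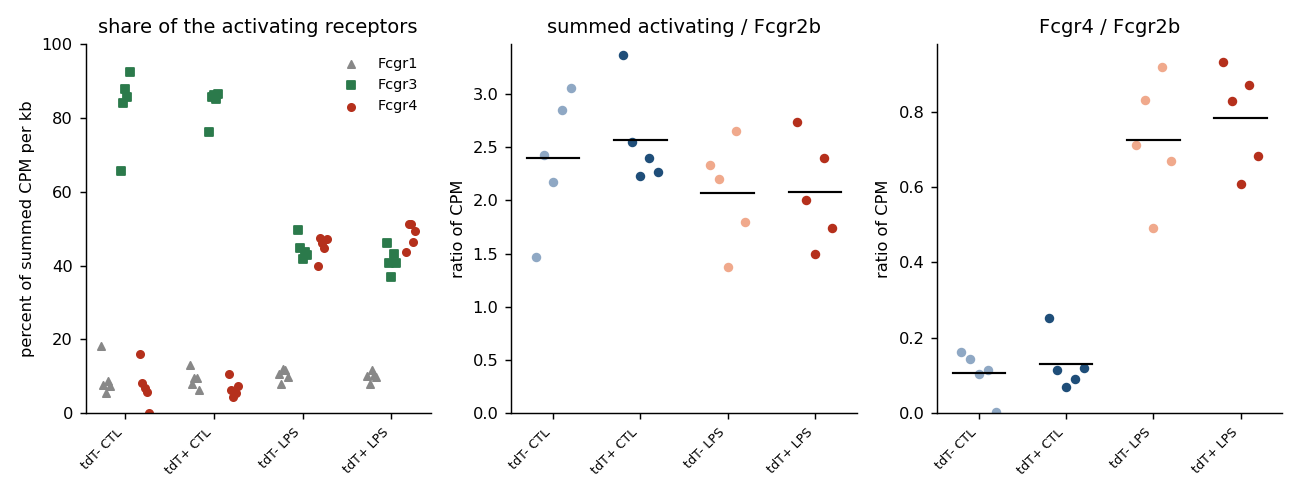
Left, percent of the summed CPM per kilobase of the 3 activating receptors taken by each, by library; middle, summed CPM of the activating receptors divided by Fcgr2b CPM; right, Fcgr4 CPM divided by Fcgr2b CPM; black lines are means of 5. The share of Fcgr4 averaged 7.38% and 6.86% in CTL and 45.1% and 48.4% in LPS libraries, while the middle ratio averaged between 2.07 and 2.56 in the 4 groups.

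Fcgrt, the heavy chain of FcRn, fell in both populations. The tdT- CTL libraries held 737, 692, 849, 436 and 397 CPM and the tdT- LPS libraries 98.7, 109, 65.4, 97.0 and 44.3 CPM. In tdT+ dCAMs it measured 1058, 874, 1084, 908 and 871 CPM in CTL and 148, 77.4, 96.6, 110 and 71.7 CPM in LPS mice. All LPS libraries lay below all CTL libraries. Fcgrt fell by 2.91 on the log2 scale (SE 0.28, adjusted p = 3.67e-07, edgeR) in tdT- and fell by 3.25 (SE 0.28, adjusted p = 7.49e-08) in tdT+ dCAMs, which is 7.51-fold and 9.52-fold. Its light chain B2m was not called. B2m averaged 6557 and 5530 CPM in tdT- and tdT+ CTL libraries and 9298 and 8602 CPM in LPS libraries, with log2 fold changes of 0.50 (SE 0.11, adjusted p = 0.00282) and 0.64 (SE 0.11, adjusted p = 3.66e-04). The ratio of B2m to Fcgrt CPM, over genes of unequal length, was 11.5 ± 4.54 and 5.81 ± 0.572 in CTL and 128 ± 65.1 and 92.1 ± 29.0 in LPS libraries (SD, n = 5).

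Fcrl2, the row taken for Fcrls, showed the largest fall of the family. It measured 817, 1681, 1496, 1282 and 1246 CPM in tdT- CTL and 70.2, 150, 142, 31.4 and 93.0 CPM in tdT- LPS libraries. The tdT+ libraries held 2516, 2446, 1890, 2041 and 2314 CPM in CTL and 127, 131, 204, 82.4 and 141 CPM in LPS mice. Groups did not overlap, and mouse 60 held the lowest LPS level in both populations. Fcrl2 fell by 3.74 on the log2 scale (SE 0.34, adjusted p = 1.87e-07, edgeR) in tdT- and fell by 4.03 (SE 0.35, adjusted p = 6.71e-08) in tdT+ dCAMs, which is 13.4-fold and 16.3-fold.

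The order of the members by level per kilobase of merged exon changed with treatment. In tdT- CTL libraries Fcer1g led at 2871 ± 563 CPM per kilobase (SD, n = 5), followed by Fcgr3 at 825 ± 238, Fcrl2 at 559 ± 139 and Fcgrt at 296 ± 93.6. Fcgr2b at 129 ± 24, Fcgr1 at 85.5 ± 20.5 and Fcgr4 at 65 ± 40.4 CPM per kilobase came last. Libraries of neighbours in this order overlapped for Fcgr3 with Fcrl2, Fcrl2 with Fcgrt, Fcgr2b with Fcgr1 and Fcgr1 with Fcgr4. The order of means was the same in tdT+ CTL libraries, where Fcgr3 (975 ± 75.9) and Fcrl2 (960 ± 115) overlapped and Fcgrt (456 ± 49.3) stood apart from its neighbours. In tdT- LPS libraries Fcer1g (5310 ± 385) was followed by Fcgr4 (1095 ± 258) and Fcgr3 (1067 ± 174), which overlapped, then Fcgr2b (339 ± 98.5) and Fcgr1 (250 ± 53.6), which overlapped, and Fcrl2 (41.7 ± 21.3) and Fcgrt (39.4 ± 12.9), which overlapped too. The order in tdT+ LPS libraries was the same, from Fcer1g at 5230 ± 207 to Fcgrt at 47.9 ± 14.5 CPM per kilobase. Several places in this order depend on the length used. With mean transcripts Fcgr3 came second in both LPS groups, at 1640 ± 267 and 1786 ± 232 CPM per kilobase, and Fcgr4 came after Fcgr2b, at 1095 ± 258 and 1351 ± 163. Fcgrt then stood above Fcrl2 in LPS libraries, and Fcrl2 (1512 ± 180) above Fcgr3 (1499 ± 117) in tdT+ CTL libraries, with overlap in each case. The level of Fcgr2b moved most with the length. Its merged exons hold 5790 bases against a mean transcript of 1597 bases, and with the latter it stood at 1228 ± 357 CPM per kilobase in tdT- LPS libraries, above Fcgr4 and overlapping with it.

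Between the populations no member was called. In CTL mice 0 of 6 members were called in tdT+ against tdT- dCAMs, where 4.28% of all genes were, and 2 of 6 (Fcer1g and Fcgrt) had an unadjusted p under 0.05, against 23.5% of all genes. By the adjusted p alone, at any fold, 0 of 6 passed in edgeR, against 4.68% of all genes. DESeq2 called 0 members as well. Fcgrt was higher in the tdT+ library of 5 of 5 CTL mice, and the populations did not overlap (397 to 849 against 871 to 1084 CPM), as was so for 3.78% of all genes. Its log2 fold change was 0.62 (95% CI 0.08 to 1.17, adjusted p = 0.161, edgeR). Fcrl2 was likewise higher in 5 of 5 CTL mice, at 1890 to 2516 CPM against 817 to 1681 CPM, with a log2 fold change of 0.78 (95% CI 0.14 to 1.42, adjusted p = 0.141). With the mouse as a block in limma-voom, whose weights ran away as given above, the adjusted p was 0.00569 for Fcgrt and 4.51e-04 for Fcrl2, and in the other alternatives it was 0.0588 or more. Fcer1g was lower in the tdT+ library of 4 of 5 CTL mice, with mouse 174 as the exception, and its log2 fold change was -0.37 (95% CI -0.62 to -0.12, adjusted p = 0.0857). Without mouse 174 it was -0.54 (adjusted p = 0.00581, edgeR), and in limma-trend -0.36 with the mouse as a block (adjusted p = 0.0395) and without it (adjusted p = 0.0427), all short of the fold threshold. For Fcgr1, Fcgr2b, Fcgr3 and Fcgr4 the log2 fold changes lay between 0.14 and 0.36, and the populations overlapped.

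In LPS mice no member was called by edgeR or DESeq2, against 0.0301% of all genes called by edgeR, and 0 of 6 had an unadjusted p under 0.05, against 5.41% of all genes. The populations were without overlap for 0 of 6 members, against 1.79% of all genes. The log2 fold changes of tdT+ against tdT- dCAMs were -0.02 (95% CI -0.28 to 0.23) for Fcer1g, 0.19 (95% CI -0.22 to 0.60) for Fcgr2b and 0.30 (95% CI -0.85 to 1.46) for Fcgr4. Fcgr2b and Fcgr4 were higher in the tdT+ library of 5 of 5 LPS mice. The share of all genes with 5 of 5 mice in the same direction is not given here, for LPS or for CTL mice. Fcgrt and Fcrl2 were higher in 4 of 5, with log2 fold changes of 0.28 (95% CI -0.26 to 0.82) and 0.49 (95% CI -0.15 to 1.14). The median log2 fold change of the 6 members was 0.29 in CTL and 0.18 in LPS mice, beside -0.01 and 0.00 over all genes.

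**Figure D4:**
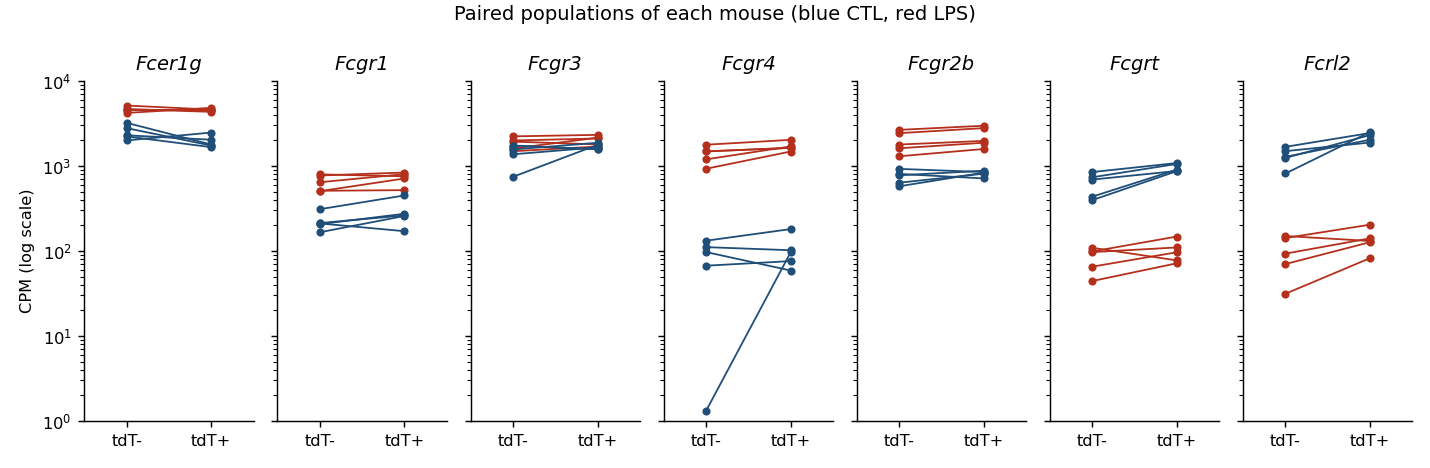
Level of each gene in CPM on a log axis in the tdT- and the tdT+ library of each mouse, joined by a line; blue lines are CTL mice and red lines LPS mice. Fcgrt and Fcrl2 were higher in the tdT+ library of 5 of 5 CTL mice.

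For no member did the LPS effect pass the test of a difference between the populations. In the test of the difference (tdT+ effect less tdT- effect) 0 of 6 members were called by edgeR or DESeq2, against 1.26% of all genes called by edgeR, and 0 had an unadjusted p under 0.05, against 13.1% of all genes. The difference was widest for Fcer1g, at 0.35 (95% CI -0.01 to 0.71, adjusted p = 0.400), so that the call of Fcer1g in tdT+ and not in tdT- dCAMs is no shown difference. It was -0.34 (95% CI -1.11 to 0.42) for Fcgrt, -0.29 (95% CI -1.19 to 0.62) for Fcrl2 and -0.03 (95% CI -1.66 to 1.60) for Fcgr4. The interval of Fcgr4 is wide enough to hold a difference of more than 1 in either direction.

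The genes outside the family whose log2 CPM followed each member most closely over the 20 libraries are given as a description, since treatment separates the libraries for most of them. Fcgr4 went with Ly6a (Pearson r = 0.978) and Xdh (0.966), Fcgr1 with Lgals3bp (0.959) and Tapbp (0.952), and Fcgr2b with Aoah (0.944) and Fth1 (0.937). Tapbp encodes tapasin, which loads peptides onto MHC class I, and Fth1 encodes the heavy chain of ferritin. Fcer1g went with Cfl1 (0.977), the actin-severing protein cofilin, and with the GTPase gene Rac2 (0.967). Fcgrt went with Trf (0.985) and Slco2b1 (0.974), and Fcrl2 with Aldh2 (0.969) and Igfbp4 (0.966). Fcgr3, with the smallest treatment difference, went with Plod1 (0.900) and Snrpa (0.897), the lowest values of likeness in the family.

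The relay of the ITAM signal downstream of Fcer1g was followed in 19 genes, all tested. In tdT- dCAMs 3 were called higher, among them Vav1 and Pik3r1, 1 lower (Tec) and 15 were not called, and in tdT+ dCAMs 6 were called higher, among them Lyn, Fgr, Vav1, Lcp2 and Rac2, and 13 were not. Of all genes tested, 7.20% were called higher and 4.27% lower in tdT-, and 3.37% and 2.52% in tdT+ dCAMs. Over the list the log2 fold change had a median of 0.68 and 0.20. Vav1, an exchange factor for Rac GTPases, went from 177 to 434 CPM on average in tdT- (log2 fold change 1.29, SE 0.17, adjusted p = 1.94e-05, edgeR) and from 222 to 475 CPM in tdT+ dCAMs (1.09, SE 0.17, adjusted p = 1.29e-04). Rac2 went from 241 to 626 CPM in tdT+ dCAMs (1.38, SE 0.20, adjusted p = 7.14e-05) and from 343 to 636 CPM in tdT- dCAMs, below the fold threshold (0.89, adjusted p = 0.00409). Pik3r1, the regulatory subunit of PI3 kinase, went from 16.2 to 79.0 CPM in tdT- dCAMs (2.29, SE 0.41, adjusted p = 6.73e-04) and from 60.1 to 69.2 CPM in tdT+ dCAMs (0.20, adjusted p = 0.901). The difference of its effects missed the threshold (-2.09, adjusted p = 0.0766). The kinase gene Tec fell by 1.34 (SE 0.42, adjusted p = 0.0410) in tdT- dCAMs, from 90.2 to 35.6 CPM with overlapping groups. Syk, named here after its values were seen, was not called, at 0.07 (95% CI -0.43 to 0.57) and -0.28 (95% CI -0.79 to 0.22).

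A further list held genes for other chains that use the gamma chain or a related ITAM adaptor, and genes for ITAM adaptors themselves. Tyrobp is such an adaptor gene. Of the 10 genes listed 9 were tested. In tdT- dCAMs 3 were called higher (Clec4e, Clec4d, Pira6) and 2 lower (Clec4n, Lilra5). In tdT+ dCAMs 2 were called higher (Clec4e, Clec4d) and 2 lower (Clec4n, Lilra5). The shares of all genes called higher and lower were 7.20% and 4.27% in tdT-, and 3.37% and 2.52% in tdT+ dCAMs. The median log2 fold change was 1.26 in tdT- and -0.67 in tdT+ dCAMs, each the value of a single gene. These were Pira2 in tdT- (1.41 to 3.42 CPM, not called) and Tyrobp in tdT+ dCAMs, which was at -0.71 in tdT- dCAMs. Of the 9 genes 5 averaged a log2 CPM of 4 or more, and none was called in the difference of the effects. Clec4e encodes the lectin Mincle and Clec4d its partner. Clec4e went from 34.9 to 738 CPM in tdT- (log2 fold change 4.40, SE 1.16, adjusted p = 0.0145, edgeR) and from 10.6 to 790 CPM in tdT+ dCAMs (6.22, SE 1.26, adjusted p = 0.00268). Clec4d went from 5.53 to 315 CPM (5.82, SE 1.23, adjusted p = 0.00283) and from 6.28 to 423 CPM (6.07, SE 1.24, adjusted p = 0.00291). Clec4n, which encodes the lectin Dectin-2, moved the other way, from 206 to 62.1 CPM (-1.73, SE 0.41, adjusted p = 0.00645) and from 335 to 70.8 CPM (-2.24, SE 0.41, adjusted p = 0.00102). Lilra5 fell by 2.81 (SE 0.53, adjusted p = 9.77e-04) and fell by 3.83 (SE 0.55, adjusted p = 6.98e-05). Pira6 was at 0 to 1 count per library in CTL and at 15 to 115 counts in tdT- LPS libraries.

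The inhibitory side and the remaining Fc receptors held called genes at about the shares found over all genes (7.20% higher and 4.27% lower in tdT-, 3.37% and 2.52% in tdT+ dCAMs). Of 11 genes of inhibitory signalling 1 was called in tdT- (Cblb, higher) and 0 in tdT+ dCAMs, with median log2 fold changes of 0.06 and -0.20. Cblb, a ubiquitin ligase gene, was at 0 to 1 count in tdT- CTL libraries and at 46.4 to 89.5 CPM in tdT- LPS libraries, and the tdT+ CTL libraries ranged from 0 to 33.4 CPM. It was the only gene of these lists called in the difference of the effects (adjusted p = 0.00267, edgeR). In CTL mice Cblb and Pik3r1 were called higher in tdT+ than tdT- dCAMs (adjusted p = 2.21e-04 and 0.00802, edgeR). The kinase gene Fgr was called lower there (adjusted p = 0.0331). The populations overlapped for Cblb and for Fgr (1.47 to 163 CPM in tdT- against 0 to 11.1 CPM in tdT+ CTL libraries), and not for Pik3r1. Of all genes tested, 4.28% were called in that comparison, but only 6 genes with only the groups compared. Inpp5d and Ptpn6, which encode the phosphatases SHIP1 and SHP-1, were not called in either population. Of 12 other Fc receptor genes 10 were tested and 1 was called higher in both populations. This was Fcmr, the receptor for IgM, at 0 counts in all CTL libraries and at 2 to 27 counts in tdT- and 5 to 45 counts in tdT+ LPS libraries. Fcrlb, an Fc receptor-like gene, was not called, though its groups did not overlap. It held 0 to 60 and 8 to 23 counts in tdT- and tdT+ CTL and 96 to 295 and 168 to 427 counts in LPS libraries, with log2 fold changes of 3.11 (95% CI 0.31 to 5.92, adjusted p = 0.129, edgeR) and 3.37 (95% CI 0.53 to 6.21, adjusted p = 0.167). Cblb, Fcmr, Fcrlb, Fgr, Inpp5d, Lcp2, Lyn, Pira2, Pira6, Ptpn6 and Tyrobp were named after their values were seen.

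**Figure D5:**
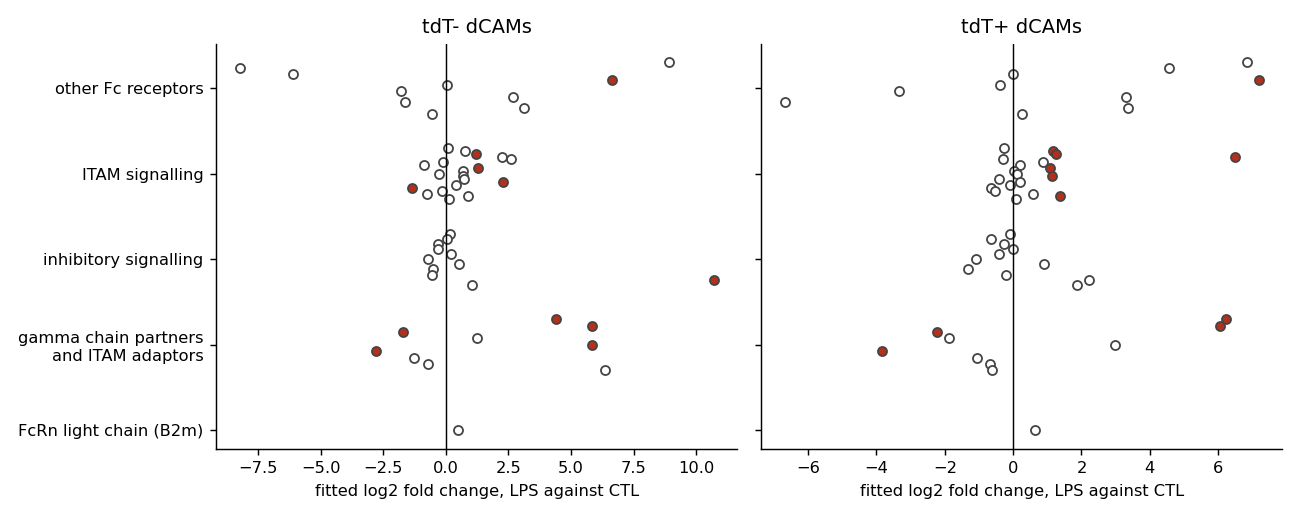
Fitted log2 fold change of LPS against CTL for the genes tested in each pathway list, in tdT- (left) and tdT+ dCAMs (right); filled points were called, open points were not, and the horizontal scales differ between the panels. Among the genes of ITAM signalling 4 of 19 were called in tdT- and 6 of 19 in tdT+ dCAMs, and among the other Fc receptors 1 of 10 was called in each. Of all genes tested, 7.20% were called higher and 4.27% lower in tdT-, and 3.37% and 2.52% in tdT+ dCAMs.

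The sorted cells held the markers of their label. All 9 macrophage markers were above 3 counts in every library. Csf1r, the most abundant over all libraries, lay at 1675 to 4140 and 5771 to 6613 CPM in tdT- and tdT+ CTL libraries and at 1004 to 1696 and 983 to 1582 CPM in LPS libraries. The summed CPM of these markers was 6583 to 14095, 17144 to 18842, 4995 to 7577 and 5956 to 9275 in tdT- CTL, tdT+ CTL, tdT- LPS and tdT+ LPS libraries. This sum moved with Fcgrt and Fcrl2, lower with LPS, with overlap in tdT- dCAMs, and higher with tdT in CTL mice. Not every marker moved that way. Itgam lay at 82.4 to 218 and 167 to 250 CPM in tdT- and tdT+ CTL and at 753 to 1061 and 908 to 1157 CPM in LPS libraries, and Mertk at 0.752 to 106 CPM in tdT- CTL and 185 to 259 CPM in tdT- LPS libraries. The part of these markers in the results of Fcgrt and Fcrl2 was not tested.

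Neutrophils carry Fcgr3, Fcgr4 and Fcer1g, and the sum of their markers was higher in LPS than in CTL libraries. Not every marker of the list rose. S100a9 reached 14.1 and 15.6 CPM in tdT- and tdT+ CTL libraries and 2.26 and 0.588 CPM in LPS libraries. Ltf reached 2.21 and 0.323 CPM in CTL and 0.753 and 0 CPM in LPS libraries. The summed CPM of 9 neutrophil markers was 68.5 to 172 in tdT- CTL, 86.5 to 209 in tdT+ CTL, 435 to 1030 in tdT- LPS and 445 to 893 in tdT+ LPS libraries. Ly6g and Cxcr2 were at or under 3 counts in every library of the 2 CTL groups and of tdT+ LPS. In tdT+ LPS libraries Fcgr4 measured 1481 to 2032 CPM. There 4 of the 9 markers were above 3 counts in every library and 3 were at or under 3 counts throughout. S100a8 lay at 99.5 to 433 CPM and Mmp8 at 54.6 to 141 CPM there, against at most 9.83 and 0.332 CPM in tdT+ CTL. In tdT- LPS libraries, where Fcgr4 measured 928 to 1780 CPM, none of the 9 markers was at or under 3 counts throughout, and Cxcr2 reached 7.95 CPM, Ly6g 1.60 CPM and Retnlg 23.2 to 667 CPM. S100a8 reached 591 CPM in tdT- LPS libraries. Csf3r, the most abundant of the list over all libraries, lay at 168 to 299 CPM in tdT- and 203 to 361 CPM in tdT+ LPS libraries. B cells carry Fcgr2b, and the summed CPM of 8 B and plasma cell markers moved opposite to it, from 704 to 1084 and 650 to 1366 in CTL to 13.1 to 41.1 and 12.3 to 32.6 in LPS libraries, with Pax5 and Igkc at or under 3 counts in all groups and Ighm as the most abundant over all libraries. The summed CPM of 6 monocyte markers was 598 to 1086, 168 to 476, 303 to 761 and 160 to 286 in the same order of groups, and that of 6 microglia markers was 366 to 1085, 937 to 1437, 613 to 813 and 580 to 915. Within the microglia list the markers moved in opposite directions with LPS. Tmem119, the most abundant over all libraries, lay at no more than 78.1 and 122 CPM in tdT- and tdT+ CTL and at 525 to 726 and 437 to 775 CPM in LPS libraries. Gpr34, the most abundant in CTL mice, lay at 133 to 662 and 291 to 562 CPM in CTL and at 4.76 to 24.1 and 9.08 to 46.1 CPM in LPS libraries, and Olfml3 was likewise lower in every LPS library of either population. Siglech and P2ry12 were lower in every LPS library of tdT+ dCAMs, with overlap in tdT- dCAMs, so that 4 of the 6 markers were lower along with Fcrl2 in tdT+ dCAMs. Fibroblast markers ranged from 10.8 to 4081 CPM in tdT- CTL libraries and from 56.8 to 359 in the other groups. Sums over mast cell and basophil markers reached 147 CPM, over endothelial markers 65.7 CPM and over NK cell markers 21.4 CPM, with Cpa3, Pecam1 and Gzma the most abundant of their lists over all libraries. Itgam, Mertk, Retnlg, S100a8, S100a9, Ltf, Mmp8, Gpr34, Olfml3, Siglech and P2ry12 were named after their values were seen. The part of these markers in the members' results was not tested beyond the values given. In sorted bulk samples, fewer cells of a type and less RNA per cell cannot be told apart.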

How the data were processed

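RNA of sorted dCAMs was measured in 20 libraries amplified by PCR from low input and carrying no molecular identifiers, so counts are of reads and not of molecules. Before sorting, Fc receptors on the cells had been blocked with an antibody. The authors aligned reads with STAR 2.7.11a and assigned them to genes with featureCounts 2.0.6, per the labels, and deposited raw counts per gene without scaling. The methods name 2 genome builds, so coordinates and lengths come from GRCm38 with GENCODE M21, where 90.6% of the table's symbols were found, and Fcrl2 was not among them. Whether counting used strand is not given in the sources used here.

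Groups came from the labels, and the members, lists, tests and alternatives were chosen with earlier results of these data known. Genes with a total count of at least 10 were scaled by TMM and fitted jointly, with 1 mean per group, by the quasi-likelihood test of edgeR 4.0.16 in R 4.3.3 (common biological coefficient of variation 1.13). The tests ran over all 16632 genes, with SE as the absolute log2 fold change over the root of F and intervals on 20.62 degrees of freedom, which take in the spread between the mice of a group. The contrasts of the populations share libraries with the LPS contrasts. The same script was tested on simulated counts first. Alternatives used DESeq2 1.42.0, limma 3.58.1, other filters, scaling, thinning and leaving out each mouse. Pairing by mouse comes from the animal: once group means were removed, both libraries of a mouse correlated across genes with r from -0.00460 to 0.0461 in CTL and 0.228 to 0.449 in LPS mice. A count of 3 or fewer was the floor.

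Genes outside the family were named by rule: per list and direction up to 2 called genes of smallest p whose log2 CPM averaged 4 or more, with B2m, the 2 genes of highest Pearson r with each member, and the most abundant marker of each list over all libraries. Levels per kilobase used merged exons. Promoters are RefSeq sequences. Some genes of the lists are counted but not reported here by name.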

Additional observations from a re-analysis of the deposited data

Results flagged for a closer look

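In 28 groups of 5 libraries (7 genes in 4 groups), 2 libraries lay far from the other 4 by Dixon's criterion on log2 CPM, and chance alone marks about 1 in 20 groups. Fcgr3 in the tdT- CTL library of mouse 174 measured 745 CPM, against 1373 to 1741 CPM in the other 4, and the gap took 0.720 of the range. Without that mouse the log2 fold change of Fcgr3 under LPS in tdT- dCAMs was 0.21 and was not called. Fcgr4 in the tdT- CTL library of mouse 179 measured 1.31 CPM, from 10 counts, against 67.1 to 132 CPM in the other 4, with a gap of 0.850 of the range. The tdT+ library of the same mouse held 96.5 CPM. Without mouse 179 the log2 fold change of Fcgr4 under LPS in tdT- dCAMs was 3.73 and was still called.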

How the results depend on the processing

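Of 294 log2 fold changes of the 7 genes under LPS, recomputed in 21 alternatives for each population, 0 changed sign and 288 kept their side of the threshold. This held for all 140 that left out a mouse and all 266 outside limma-voom. The other 6 lost the call in limma-voom, as given beside each gene. That tool called 2 members in tdT- dCAMs with quality weights and 2 with the replicate block, and 3 in tdT+ dCAMs with the block. With the block its fitted trend fell below 0, so the values of that fit at high counts cannot be read as a test. With quality weights the lowest value of the trend was 0.044, and the weight of a member's count reached 2.02e+03. Limma-trend with and without the block was added after these weights had been seen.

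The number of genes called in all, the background, moved more. In tdT- dCAMs under LPS it was 1908, but 873 with only the groups compared, 4522 with the replicate block in limma-voom, 3680 with the block in limma-trend and 3682 in limma-trend alone. In tdT+ dCAMs it was 979, but 1533 in DESeq2, 2227 with only the groups compared, 3156 with quality weights and 1570 with the block in limma-voom. Between populations in CTL mice it was 712, but 1640 in DESeq2, 6 with only the groups compared, 369 with quality weights, 2245 with the block in limma-voom, 1753 with the block in limma-trend and 1651 in limma-trend alone. Leaving out a mouse gave 468 (without LPS mouse 56) to 1356 (without CTL mouse 175). In LPS mice it was 5, but 57 in DESeq2, 43 with only the groups compared, 137 with quality weights, 22 and 18 with the block in limma-voom and limma-trend, 17 in limma-trend alone and 3 with mouse as a fixed block, with the title letter as a term or after thinning, and 1 to 6 without a mouse. For the difference it was 209, but 744 in DESeq2, 619 with the block in limma-voom, 83 with mouse as a fixed block, and 63 to 622 without a mouse (622 without CTL mouse 175). The causes were not tested. No alternative called a member between the populations or in the difference. Rows of near-copies (Fcgr2b, Fcgr3) and the row standing for Fcrls limit what the table can show.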
